A study of Mus musculus with 32 samples.

Results

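The protocadherins are the largest branch of the cadherin superfamily. Here they are the protein-coding genes whose symbol begins with Pcdh and that reached at least 10 counts in at least 4 of the 32 libraries, which were 68 of the 54146 gene rows of the deposited table. They comprised 13 genes of the alpha cluster, 22 of the beta cluster, 21 of the gamma cluster and 12 genes outside the clusters. The clusters and 2 of the single genes, 58 members in all, lie on chromosome 18. The rows carry Ensembl identifiers, and 2 of them share the symbol Pcdha11. The rule used no comparison between groups. The single-exon beta gene Pcdhb1 lay just inside the threshold with 9 libraries at 10 counts or more and a mean of 6.63 counts, and Pcdha8 followed with 13 libraries and Pcdh12 with 20. Pcdha4 lay outside it, with no more than 2 counts in any library. However, 494 of its 5768 exonic bases (8.56%) belong to no other annotated gene on the same strand, so these counts do not show whether it was expressed. Pcdhgb8 reached 31 libraries but is annotated as a polymorphic pseudogene and was left out.

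RNA came from single hippocampal or striatal hemispheres of male C57BL/6J mice aged 12 weeks, with 4 libraries in each of 8 groups. The mice were given CI-994, a class I histone deacetylase inhibitor (HDACi, 30 mg/kg), or vehicle (dimethyl sulfoxide, Kolliphor and saline) in a single intraperitoneal dose. After 1 hour they underwent contextual fear conditioning (CFC), in which a chamber is paired with 2 foot shocks of 0.2 mA, or spent equal time there unshocked (context). Tissue was taken 1 hour after that session. In each region the groups were therefore HDACi CFC, HDACi context, vehicle CFC and vehicle context. Drug was randomised over mice, whereas conditioning was randomised over whole cages, so the effect of conditioning cannot be told apart from that of the cage. The libraries hold polyadenylated RNA of mixed cells, so fewer cells of a type and less RNA per cell cannot be told apart.

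Protocadherins are single-pass membrane proteins with extracellular cadherin repeats that bind mostly to the same protein on a facing cell. In the alpha and gamma clusters each gene has its own promoter and a long variable exon for the extracellular part, spliced to constant exons that all genes of that cluster share. Each neuron switches on a few of these promoters, chosen largely at random through CTCF and cohesin loops to distant enhancers, and the resulting combinations give neurons an identity that lets their own branches avoid each other. The last genes of the alpha and gamma clusters, called C-type (Pcdhac1, Pcdhac2, Pcdhgc3, Pcdhgc4 and Pcdhgc5), are used more uniformly across neurons. Beta genes have one coding exon each and no constant exons. The single genes, mostly of the delta subfamilies, mark particular circuits and act in axon growth, synapse formation and cell sorting.

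Promoter windows of 300 bases, from 250 before to 50 after the transcription start, were read from RefSeq (GRCm38.p6) for the 9 single genes that matched the table by symbol, in 10 windows. No clustered member matched. The following 3 are shown, on the strand of the gene, because Pcdh8 was the most drug-responsive of the abundant single genes in hippocampus, Pcdh20 had the largest regional difference and Pcdh10 was the striatum-biased gene with the smallest error. Capitals mark TATA boxes (TATAAA), the CCAAT box, GC boxes (GGGCGG) and cyclic AMP response element half-sites (TGACG), searched on both strands, and the half-site also lies within the full element (TGACGTCA).
Pcdh8 (chr14:79771263-79771562, minus strand): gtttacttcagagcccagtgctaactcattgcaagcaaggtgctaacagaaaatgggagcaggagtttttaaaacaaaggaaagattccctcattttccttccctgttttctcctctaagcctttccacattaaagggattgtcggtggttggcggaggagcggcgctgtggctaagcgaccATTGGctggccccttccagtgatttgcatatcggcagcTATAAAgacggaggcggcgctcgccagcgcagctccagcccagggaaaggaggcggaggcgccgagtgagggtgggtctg
Pcdh20 (chr14:88471347-88471646, minus strand): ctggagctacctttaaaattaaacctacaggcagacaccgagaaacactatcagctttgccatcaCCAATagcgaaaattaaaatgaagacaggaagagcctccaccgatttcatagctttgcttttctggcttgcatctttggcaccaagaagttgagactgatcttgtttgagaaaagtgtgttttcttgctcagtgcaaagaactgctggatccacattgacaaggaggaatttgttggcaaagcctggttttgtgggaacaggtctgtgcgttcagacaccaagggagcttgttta
Pcdh10 (chr3:45378148-45378447, plus strand): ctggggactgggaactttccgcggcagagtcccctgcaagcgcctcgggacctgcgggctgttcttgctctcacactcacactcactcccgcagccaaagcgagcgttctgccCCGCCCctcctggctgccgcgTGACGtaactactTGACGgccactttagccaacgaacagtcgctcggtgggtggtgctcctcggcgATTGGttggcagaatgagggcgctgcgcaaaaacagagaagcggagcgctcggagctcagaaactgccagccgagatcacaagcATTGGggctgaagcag

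The Pcdh8 window held 1 TATA box and 1 CCAAT box, the Pcdh20 window 1 CCAAT box, and the Pcdh10 window 2 CCAAT boxes, 1 GC box and 2 half-sites, with no overlapping matches. A CCAAT box was in 9 of the 10 windows, against 37.4% of all 32851 windows in the table. TATA boxes were in 2 of 10, against 13.6% of all windows, GC boxes in 4 of 10, against 35.7%, and half-sites in 3 of 10, against 20.8%. The full element was in 0 of 10, against 1.79%. These matches describe letters in a fixed window and say nothing of a factor's binding.

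Library totals were 26026024 to 36670767 counts in hippocampus and 27418127 to 33635025 in striatum. Markers supported the labelled region: in vehicle context mice 16 of 18 hippocampal excitatory genes were higher and 18 of 18 medium spiny neuron genes lower in hippocampus. Some libraries stood apart. Hippocampus HDACi CFC replicates 2 and 4 held 5433 and 5237 CPM (counts scaled to a library total of 1000000) of Ttr, the main choroid plexus transcript, against 3.44 to 355 CPM in the other hippocampal libraries. Striatum HDACi CFC replicate 2 and striatum vehicle CFC replicate 3 had the lowest summed medium spiny neuron markers, 8616 and 8985 CPM against 10704 to 14115 CPM in the other striatal libraries, and summed hippocampal excitatory markers of 782 and 822 CPM. Striatum HDACi CFC replicate 4 had 829 CPM of those markers, and the other striatal libraries 493 to 647 CPM. Where leaving out the choroid-rich pair or the pair low in medium spiny neuron markers added or ended a call of a member, that value is given. The labels call the 4 libraries biological replicates, and same-group libraries differed by 5.77 to 67.7 times the chi-square expected of counting error alone.

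Counts of clustered genes carry an uncertainty that those of single genes do not. Bases belonging to no other annotated gene on the same strand made up 40.1% to 61.1% of the exonic length of alpha genes (median 46.5%) and 33.2% to 68.5% of gamma genes (median 55.4%). They made up 90.3% to 100% in beta genes and all of it in single genes. How the authors treated reads in shared exons is not given in the sources used here. The readthrough genes Gm42416, Gm37013, Gm37388 and Gm38182, whose exons overlap those of 21 or 22 members, were at 0 counts in all libraries. Pcdhga10 held 335 counts on average although every exonic base of it is also covered by another annotated gene on one strand or the other. Levels are therefore compared between genes per kilobase of own exon, and levels and changes of single alpha and gamma genes remain uncertain to the extent that shared reads were split.

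Levels per kilobase of own exon were ordered within each region, over its 16 libraries (mean ± SD). In hippocampus the highest members were Pcdh20 (48.8 ± 7.77 CPM per kb), Pcdh1 (41.0 ± 9.07) and the gamma C-type gene Pcdhgc5 (25.2 ± 2.64), and then Pcdh9 (22.1 ± 1.80) and Pcdhgc3 (14.9 ± 2.12). Pcdh20 and Pcdh1 did not differ beyond their spread. In striatum Pcdhgc5 came first (25.7 ± 2.79 CPM per kb), and then Pcdh1 (17.9 ± 4.25), Pcdhgc3 (15.8 ± 2.06), Pcdh9 (14.3 ± 1.91), Pcdh17 (12.6 ± 1.58) and Pcdh10 (12.2 ± 0.69), of which neighbours from Pcdh1 on lay within each other's spread. Pcdh20 stood at 2.27 ± 0.52 CPM per kb there. Within the alpha cluster Pcdhac2, which guides the spacing of serotonergic axons, was highest in both regions (10.4 ± 0.72 CPM per kb in hippocampus and 6.92 ± 0.70 in striatum), and Pcdha8 lowest (0.0899 and 0.148). Within the beta cluster Pcdhb9 was highest in hippocampus (4.45 ± 0.38 CPM per kb) and Pcdhb20 in striatum (3.82 ± 0.30). Pcdhb17, the beta gene of highest mean CPM before division by length, stood at 3.34 CPM per kb in hippocampus and 3.74 in striatum. Pcdhb1 was lowest (0.0382 and 0.131). The lowest single genes in both regions were Pcdh12, an endothelial protocadherin (0.0794 and 0.0559 CPM per kb), Pcdh18 (0.672 and 0.866) and Pcdh15, a tip-link protein of hair cells that is also made by oligodendrocyte precursors (0.772 and 0.889).

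The effect of the drug was tested in 4 comparisons of HDACi with vehicle mice, one for each region and behaviour, with edgeR's quasi-likelihood test and Benjamini-Hochberg adjustment over all genes of the region. Members were called at an adjusted p under 0.05. With all libraries, no block and scaling by the trimmed mean of M-values (TMM), every call among protocadherins was to a higher level under HDACi. After CFC in hippocampus 4 of 67 members tested were higher and 0 lower, against 20.8% of all genes called (7.42% higher, 13.4% lower). After context in hippocampus 5 of 67 were higher and 0 lower, against 19.8% of all genes (6.55% higher, 13.2% lower). In striatum 6 of 68 were higher and 0 lower after CFC, against 24.2% (9.57% higher, 14.6% lower), and 5 of 68 higher and 0 lower after context, against 24.8% (10.3% higher, 14.5% lower). The share of members called was thus below the share of all genes in each of these comparisons, and the share called higher was near or below it. With scaling to library size alone, which moved the median of all genes to between -0.09 and -0.05 on the log2 scale, members split 3 higher and 2 lower, 4 and 2, 5 and 0, and 1 and 3 in the same order. Lower calls under that scaling, named after their values were seen, were Pcdhga1 and Pcdha8 after CFC in hippocampus, both Pcdha11 rows after context in hippocampus, and Pcdhb13, Pcdha5 and 1 Pcdha11 row after context in striatum.

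Calls fell on gamma and single genes. In total 10 members were called in at least 1 of the 4 comparisons, 4 of the gamma cluster and 6 single genes, and Pcdhgc5 alone was called in all 4. The share of all genes called in at least 1 of them was not counted, while each comparison alone called 19.8% to 24.8% of all genes. No alpha gene and no beta gene was called by edgeR in these 4 comparisons with TMM scaling and no block, while other fits called some, among them a Pcdha11 row under the replicate block given below. Without the libraries high in choroid plexus genes the same Pcdha11 row was called lower after context in hippocampus (-0.48, adjusted p = 0.0476), and the gamma gene Pcdhga1 was called lower after CFC there (-0.61, adjusted p = 0.0222). Without the pair low in medium spiny neuron markers Pcdhb6 was called higher after CFC in striatum (0.47, adjusted p = 0.0223). At an unadjusted p under 0.05 there were 1, 3, 0 and 2 alpha genes and 0, 1, 1 and 0 beta genes (hippocampus CFC, hippocampus context, striatum CFC, striatum context), and DESeq2 called 0 in each. The median log2 fold change of HDACi over vehicle, in that order, was -0.07, 0.01, 0.03 and -0.09 for alpha genes and -0.04, -0.01, 0.03 and 0.01 for beta genes. For gamma genes it was 0.08, 0.16, 0.11 and 0.17, and for single genes 0.27, 0.12, 0.41 and 0.18. The medians of all genes were 0.01, 0.01, 0.03 and 0.03. The summed alpha cluster ran from 34.8 to 39.15 CPM in HDACi context striatum and from 39.24 to 47.0 CPM in vehicle context striatum, without overlap (37.3 ± 2.04 and 43.9 ± 3.37 CPM, SD, n = 4 each). In the other 3 pairs the alpha sums overlapped, with means of 59.8 and 59.8 CPM in HDACi and vehicle CFC hippocampus, 57.0 and 60.0 CPM in HDACi and vehicle context hippocampus, and 42.5 and 42.6 CPM in HDACi and vehicle CFC striatum. The summed beta cluster overlapped in all 4 pairs, with means of 153 and 166 CPM (CFC) and 155 and 164 CPM (context) in HDACi and vehicle hippocampus, and 169 and 177 CPM (CFC) and 166 and 179 CPM (context) in HDACi and vehicle striatum. These sums are a description without a test.

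**Figure D1:**
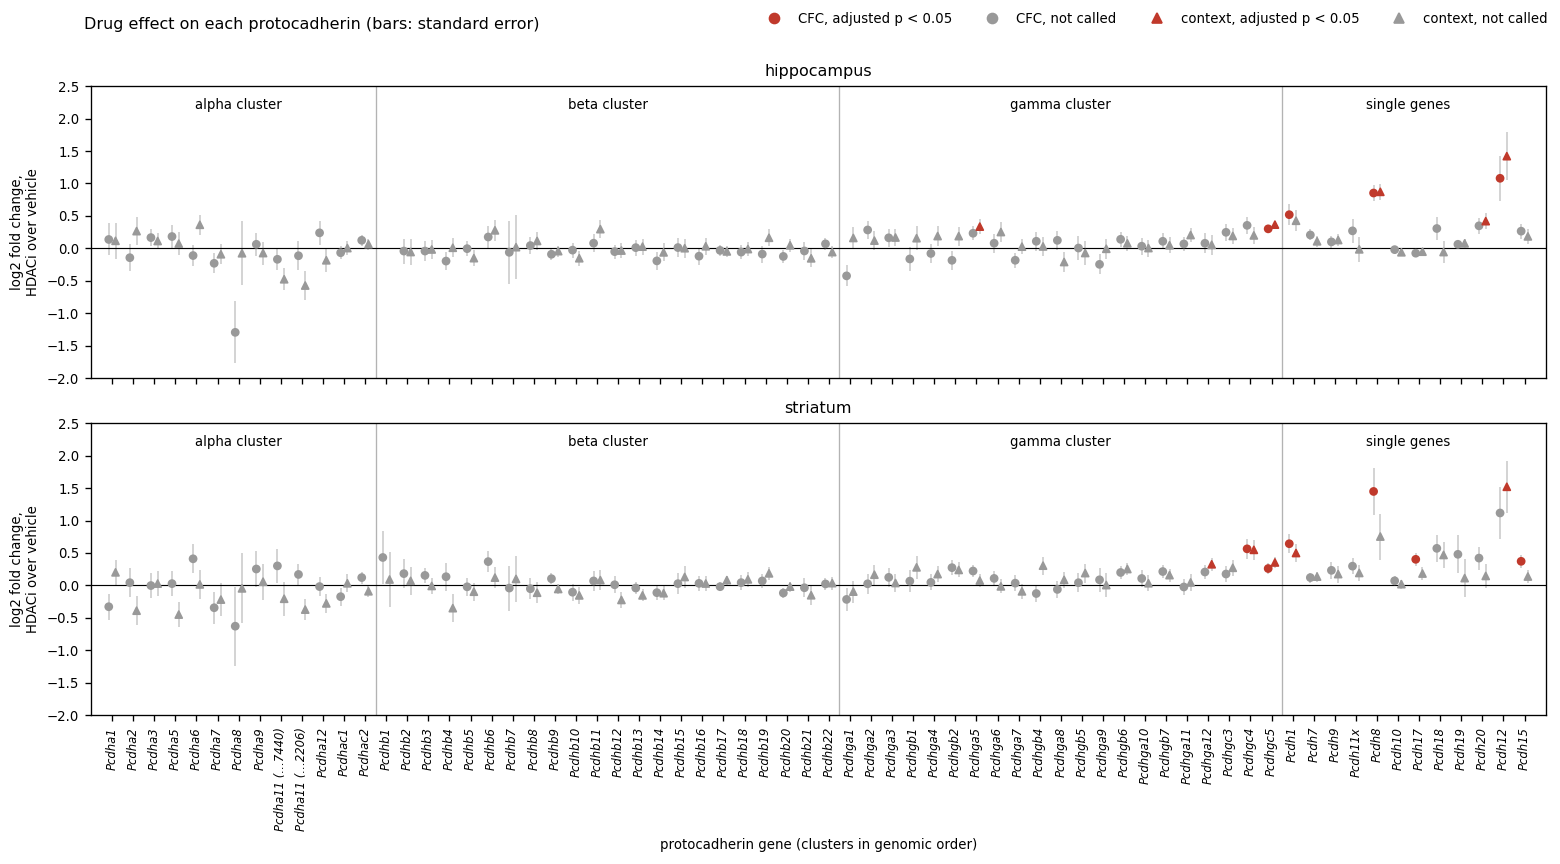
Log2 fold change of HDACi over vehicle (y axis, lines are standard errors) for each protocadherin (x axis, clusters in genomic order, then single genes) in hippocampus and striatum, after CFC (circles) and context (triangles). Red marks adjusted p under 0.05: all red points lie above 0, 4 and 5 in hippocampus and 6 and 5 in striatum, and none is an alpha or beta gene.

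Pcdhgc5 encodes a C-type protein that associates with synaptic GABA-A receptors in rat neurons. After CFC in hippocampus it stood at 128, 132, 115 and 126 CPM in HDACi mice, against 113, 99.3, 102 and 111 CPM in vehicle mice. The 4 HDACi libraries lay above the 4 vehicle libraries, and the log2 fold change was 0.30 ± 0.061 (standard error, as for all fold changes here; adjusted p = 0.00184). After context in hippocampus it stood at 134, 129, 127 and 123 CPM in HDACi mice, against 101, 113, 105 and 102 CPM in vehicle mice, again without overlap (0.37 ± 0.0611, adjusted p = 0.000365).

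In striatum the change of Pcdhgc5 was of similar size but the groups were less separate. After context its levels were 131, 134, 121 and 130 CPM in HDACi mice, against 98.9, 131, 93.1 and 114 CPM in vehicle mice, with vehicle replicate 2 inside the HDACi range (log2 fold change 0.35 ± 0.09, adjusted p = 0.00829). After CFC they were 136, 130, 113 and 120 CPM in HDACi mice, against 108, 108, 112 and 114 CPM in vehicle mice, which overlapped (0.26 ± 0.09, adjusted p = 0.0448). This last call was lost on leaving out any 1 of the 8 libraries other than HDACi CFC replicate 3 (adjusted p 0.0535 to 0.141). It was also lost without the pair of libraries low in medium spiny neuron markers (0.25, adjusted p = 0.103).

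Pcdhgc4, a C-type gene that mouse neurons need for survival, was higher in striatum. After CFC it stood at 8.59, 15.2, 8.02 and 10.8 CPM in HDACi mice, against 7.55, 8.43, 7.48 and 6.95 CPM in vehicle mice. HDACi replicate 2 was the highest library, and HDACi replicate 3 lay below the highest vehicle library (log2 fold change 0.56 ± 0.155, adjusted p = 0.014). Without that HDACi replicate 2 the change was 0.35 and no longer called (adjusted p = 0.0573). The call was also lost without the pair of libraries low in medium spiny neuron markers (0.35, adjusted p = 0.0782). After context in striatum it stood at 10.0, 9.52, 7.36 and 8.18 CPM in HDACi mice, against 5.72, 6.80, 6.55 and 6.81 CPM in vehicle mice, without overlap (0.55 ± 0.156, adjusted p = 0.0164). That call was lost without HDACi replicate 1 (0.48, adjusted p = 0.0529) or vehicle replicate 1 (0.46, adjusted p = 0.063). In hippocampus the changes of 0.36 after CFC and 0.20 after context were not called (adjusted p = 0.0678 and 0.341). Of 19 alternative fits, 7 called the CFC change, among them DESeq2 (0.38, adjusted p = 0.0292), and 0 the context change.

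The remaining C-type genes gave no call by edgeR with all libraries, TMM scaling and no block. For Pcdhgc3, which binds Axin1 and shapes dendrites, the log2 fold change was 0.25 and 0.19 in hippocampus and 0.18 and 0.27 in striatum (CFC and context in turn, adjusted p 0.111 to 0.344). Of 19 alternative fits, 3 called Pcdhgc3 higher after CFC and 2 after context in hippocampus. In striatum 0 of 19 did so after CFC and 4 after context, among them GC and length correction (0.28, adjusted p = 0.00961). Pcdhac2 gave 0.12 and 0.07 in hippocampus and 0.12 and -0.09 in striatum, and Pcdhac1 -0.07 and 0.01 in hippocampus and -0.17 and 0.03 in striatum. Of the gamma genes outside this group, Pcdhga5 was called after context in hippocampus, at 13.5, 13.2, 11 and 9.24 CPM in HDACi mice against 10.0, 8.85, 9.49 and 10.9 CPM in vehicle mice (0.34 ± 0.111, adjusted p = 0.0417). These groups overlapped, and the call was lost on leaving out any 1 of vehicle replicates 1, 2 and 3 or HDACi replicates 1, 2 and 3 (adjusted p 0.0541 to 0.14), and without the libraries high in choroid plexus genes (0.33, adjusted p = 0.0575). Pcdhga12 was called after context in striatum, at 10.9, 11.4, 9.75 and 8.91 CPM in HDACi mice against 9.41, 8.75, 8.05 and 9.10 CPM in vehicle mice (0.33 ± 0.102, adjusted p = 0.0271). Its groups overlapped too, and the call was lost without vehicle replicate 2 or 3 or HDACi replicate 1 or 2 (adjusted p 0.0735 to 0.0867).

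**Figure D2:**
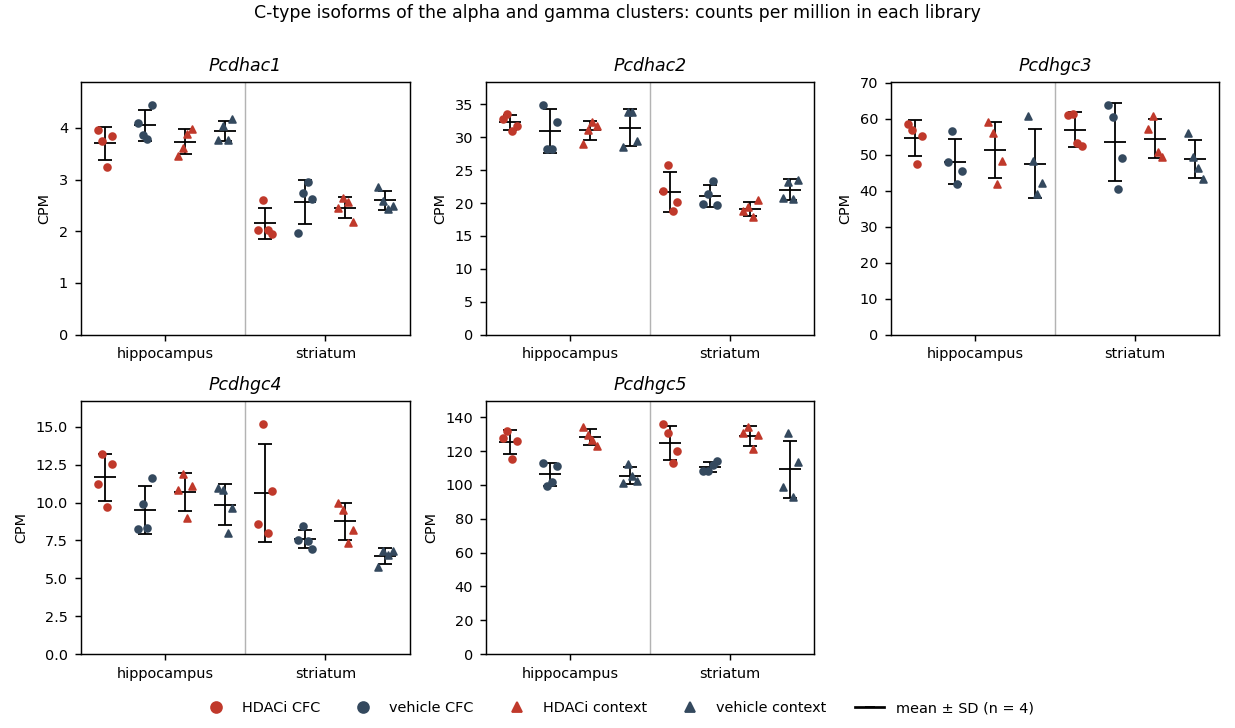
CPM (y axis, from 0) of the 5 C-type genes in each library of hippocampus and striatum, with circles for CFC, triangles for context, red for HDACi and grey-blue for vehicle. Horizontal bars are means and whiskers SD of 4 libraries. Pcdhgc5 in hippocampus stood at 115 CPM or more in every HDACi library and at 113 CPM or less in every vehicle library.

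The C-type genes took a larger share of the counts of the gamma cluster in HDACi than in vehicle mice. In hippocampus the share ran from 50.4% to 53.2% in HDACi CFC and from 46.7% to 48.8% in vehicle CFC libraries, and from 49.7% to 52.5% in HDACi context and from 46.9% to 49.2% in vehicle context libraries. In striatum it ran from 43.6% to 47.2% in HDACi context and from 40.3% to 40.8% in vehicle context libraries. After CFC in striatum the ranges overlapped, at 42.1% to 46.5% in HDACi and 40.2% to 43.2% in vehicle libraries. The gamma sum without C-type genes averaged 175 ± 5.7 CPM in HDACi CFC and 179 ± 6.4 CPM in vehicle CFC hippocampus, and 242 ± 12.0 and 242 ± 23.1 CPM in striatum (SD, n = 4 each). In the alpha cluster the C-type share overlapped between drug groups in all 4 pairs, for example 58.6% to 62.7% in HDACi CFC and 56.6% to 59.8% in vehicle CFC hippocampus. These shares are a description without a test, and how far reads in the shared constant exons entered them is not known.

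Among the single genes, Pcdh8 had the clearest change. The gene lies at chr14:79766775-79771312 on the minus strand (GRCm38, as for all coordinates here). Its product, also called arcadlin, is induced by neuronal activity in rat hippocampus and removes N-cadherin from synapses. After CFC in hippocampus it stood at 69.8, 57.9, 63.5 and 60.7 CPM in HDACi mice, against 42.5, 37.9, 35.3 and 30.2 CPM in vehicle mice. After context it stood at 69.2, 52.8, 57.7 and 61.1 CPM in HDACi mice, against 43.5, 35.4, 32 and 28.5 CPM in vehicle mice. Neither pair of groups overlapped, and the log2 fold changes were 0.85 ± 0.124 after CFC (adjusted p = 0.000107) and 0.87 ± 0.124 after context (adjusted p = 9.03e-05). Both calls held under every alternative run, including the fit without the libraries high in choroid plexus genes (0.95 and 0.86).

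In striatum Pcdh8 was much lower. After CFC it stood at 8.69, 26.8, 6.91 and 9.13 CPM in HDACi mice, against 3.88, 4.41, 7.87 and 3.58 CPM in vehicle mice. The highest library of each group, HDACi replicate 2 and vehicle replicate 3, was the one lowest in medium spiny neuron markers, and the part of tissue composition in these values was not tested. The log2 fold change was 1.45 ± 0.357 (adjusted p = 0.00695), 0.82 without HDACi replicate 2 (adjusted p = 0.0234) and 1.15 ± 0.188 without both libraries (adjusted p = 0.000447). Within replicates 3 and 4 alone it was 0.55 and not called (adjusted p = 0.304). After context it stood at 11.2, 6.98, 6.74 and 6.82 CPM in HDACi mice, against 5.87, 4.54, 4.72 and 5.2 CPM in vehicle mice. Those groups did not overlap, but the change of 0.75 ± 0.354 was not called (adjusted p = 0.135). With the same 2 CFC libraries out of the fit it was 0.73 ± 0.159 (adjusted p = 0.00283). Of 18 immediate early genes, 5 were higher in each hippocampal comparison, 1 after CFC in striatum, and 1 higher and 1 lower after context in striatum. Among all genes 7.42% and 6.55% were higher in hippocampus (CFC and context) and 9.57% and 10.3% in striatum, with 14.5% lower after context in striatum. The part of immediate early genes in the change of Pcdh8 was not tested.

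Pcdh1, an adhesion protein of epithelia and axons, was called in 3 comparisons. After CFC in striatum it stood at 195, 244, 171 and 185 CPM in HDACi mice, against 160, 132, 136 and 110 CPM in vehicle mice. The groups did not overlap (log2 fold change 0.64 ± 0.146, adjusted p = 0.00396), and the call held under every alternative run. After context in striatum it stood at 170, 205, 140 and 160 CPM in HDACi mice, against 156, 142, 101 and 117 CPM in vehicle mice (0.50 ± 0.145, adjusted p = 0.0186). Here the groups overlapped, and the call was lost without vehicle replicate 3 or 4 or HDACi replicate 2 (adjusted p 0.0545 to 0.0702).

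In hippocampus Pcdh1 differed within groups along the replicate numbers. After CFC it stood at 489, 477, 331 and 409 CPM in HDACi mice, against 363, 350, 263 and 268 CPM in vehicle mice. After context it stood at 488, 419, 320 and 353 CPM in HDACi mice, against 375, 356, 280 and 234 CPM in vehicle mice. The drug groups overlapped in both pairs. Replicates 1 and 2 lay above replicates 3 and 4 in each of these 4 groups, and the labels name no batch for that split. The log2 fold change was 0.52 ± 0.164 after CFC (adjusted p = 0.0327) and 0.43 ± 0.164 after context (adjusted p = 0.0812). Within replicates 1 and 2 alone the CFC change was 0.52 (adjusted p = 0.0133) and within replicates 3 and 4 it was 0.54 (adjusted p = 0.0238). The CFC call was lost without the libraries high in choroid plexus genes (0.48, adjusted p = 0.197), and without any 1 of vehicle replicates 3 and 4 or HDACi replicates 1, 2 and 4 (adjusted p 0.0532 to 0.0997).

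Same-numbered hippocampal context libraries of HDACi and vehicle mice deviated together, with correlations of 0.200 to 0.417. HDACi replicate 2, however, was closer to vehicle replicate 1 than to vehicle replicate 2, so pairs by number are not established. A fit with the replicate number as a block was run as an alternative. It called 7 members higher and 1 lower. Beyond the 5 above it added Pcdh1 (0.43, adjusted p = 0.000218) and Pcdhgc3 (0.19, adjusted p = 0.0483), and it called 1 of the Pcdha11 rows lower (ENSMUSG00000007440, -0.48, adjusted p = 0.04). These 3 were named after their values were seen.

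Pcdh12 is a protocadherin of endothelial cells and was rare, with 2 to 26 counts in a library. After context in hippocampus it had 21, 23, 21 and 10 counts in HDACi libraries, against 9, 8, 8 and 7 counts in vehicle libraries. After context in striatum it had 17, 10, 17 and 16 counts in HDACi libraries, against 7, 8, 6 and 2 counts in vehicle libraries. The groups did not overlap, and the log2 fold changes were 1.42 ± 0.368 (adjusted p = 0.0108) and 1.52 ± 0.404 (adjusted p = 0.011). After CFC in hippocampus the change was 1.08 ± 0.344 (adjusted p = 0.0343), lost without any 1 of vehicle replicates 2, 3 and 4 or HDACi replicates 1, 3 and 4 (adjusted p 0.0518 to 0.0944), and without the libraries high in choroid plexus genes (1.29, adjusted p = 0.0578). After CFC in striatum it was 1.12 ± 0.402 and not called (adjusted p = 0.0537). Of 12 other endothelial markers, 4 were higher after CFC and 1 after context in hippocampus, and 3 after CFC and 5 after context in striatum. Among all genes 7.42%, 6.55%, 9.57% and 10.3% were higher in that order. The summed level of these markers ran from 194 to 251 CPM in HDACi context and from 176 to 269 CPM in vehicle context hippocampus. In striatum it ran from 248 to 297 CPM in HDACi context and 209 to 253 CPM in vehicle context libraries, and no marker was at 0. The part of these markers in the change of Pcdh12 was not tested.

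Pcdh20 (chr14:88464743-88471396, minus strand), a delta-type adhesion gene, was called after context in hippocampus. It stood there at 316, 255, 351 and 315 CPM in HDACi mice, against 240, 223, 280 and 235 CPM in vehicle mice, with overlapping groups (log2 fold change 0.42 ± 0.121, adjusted p = 0.0207). The call was lost without vehicle replicate 2 or 4 or HDACi replicate 3 or 4 (adjusted p 0.0512 to 0.07). After CFC in hippocampus it stood at 297, 254, 330 and 259 CPM in HDACi mice, against 252, 200, 260 and 226 CPM in vehicle mice. That change of 0.35 ± 0.121 was not called (adjusted p = 0.0518), but was called without the libraries high in choroid plexus genes (0.50 ± 0.129, adjusted p = 0.0194).

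Among the drug comparisons, Pcdh17 and Pcdh15 were called only after CFC in striatum by edgeR with all libraries, TMM scaling and no block. Pcdh17 (chr14:84443563-84539002, plus strand), which organises presynaptic vesicles in corticobasal ganglia circuits of mice, stood at 181, 188, 191 and 169 CPM in HDACi mice, against 145, 137, 157 and 145 CPM in vehicle mice. The groups did not overlap (log2 fold change 0.40 ± 0.103, adjusted p = 0.0092). After context in striatum it stood at 137, 197, 144 and 192 CPM in HDACi mice, against 156, 170, 156 and 156 CPM in vehicle mice (0.18 ± 0.103, adjusted p = 0.217). In hippocampus its changes were -0.07 after CFC and -0.05 after context (adjusted p = 0.443 and 0.627).

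Pcdh15 (chr10:73099342-74649737, plus strand) stood at 20.2, 29.1, 23.1 and 22.5 CPM in HDACi CFC striatum, against 18.2, 20.6, 20.6 and 18 CPM in vehicle CFC striatum (log2 fold change 0.37 ± 0.096, adjusted p = 0.00942). HDACi replicate 1 lay inside the vehicle range. Without the pair of libraries low in medium spiny neuron markers the change was 0.30 (adjusted p = 0.0296). Of 10 oligodendrocyte precursor markers, 7 were higher in this comparison, against 9.57% of all genes. Their summed levels were 433 to 512 CPM in HDACi CFC and 291 to 358 CPM in vehicle CFC striatum, with none at 0. The same list had 7 higher in each hippocampal comparison and 5 after context in striatum, against 7.42%, 6.55% and 10.3% of all genes. Pcdh15 was not called in those comparisons (0.27, 0.19 and 0.14, adjusted p = 0.118, 0.305 and 0.327). After CFC in hippocampus it was called with the replicate block (0.28, adjusted p = 0.0363) and without vehicle CFC replicate 3 (0.35, adjusted p = 0.0449). The part of oligodendrocyte precursors was not tested.

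The other 6 single genes gave no call in any drug comparison by edgeR with all libraries, TMM scaling and no block. Other fits of all libraries called some of them higher. DESeq2 called Pcdh7 after CFC in hippocampus (0.23, adjusted p = 0.0469) and Pcdh18 after CFC in striatum (0.57, adjusted p = 0.0303). GC and length correction called Pcdh9 in hippocampus (0.16 after CFC and 0.20 after context, adjusted p = 0.03 and 0.00766). In the edgeR fit Pcdh18, whose product binds the reelin adaptor Dab1, had the largest change of these 6 genes, 0.57 ± 0.206 after CFC in striatum. After context there it was 0.47 ± 0.204 (adjusted p = 0.0539 and 0.105). Without the pair of libraries low in medium spiny neuron markers both were called (0.71 ± 0.167 and 0.44 ± 0.14, adjusted p = 0.00639 and 0.0268). Of 10 pericyte and mural markers 2 and 3 were higher in these comparisons, against 9.57% and 10.3% of all genes. The part of these markers was not tested. Pcdh19, which joins N-cadherin in adhesion complexes and underlies an X-linked epilepsy in humans, gave 0.06 and 0.08 in hippocampus. Its change of 0.48 ± 0.29 after CFC in striatum rested on HDACi replicate 2 at 34.6 CPM, against 11.3 to 14.7 CPM in the other HDACi libraries. Pcdh10, which prunes synapses in mouse hippocampal neurons, changed by -0.02, -0.06, 0.07 and 0.02 with standard errors of 0.0596 to 0.0717. Pcdh7, Pcdh9 and Pcdh11x, members of a delta subfamily with a longer cytoplasmic tail, ranged from -0.01 to 0.30 over the 4 comparisons.

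**Figure D3:**
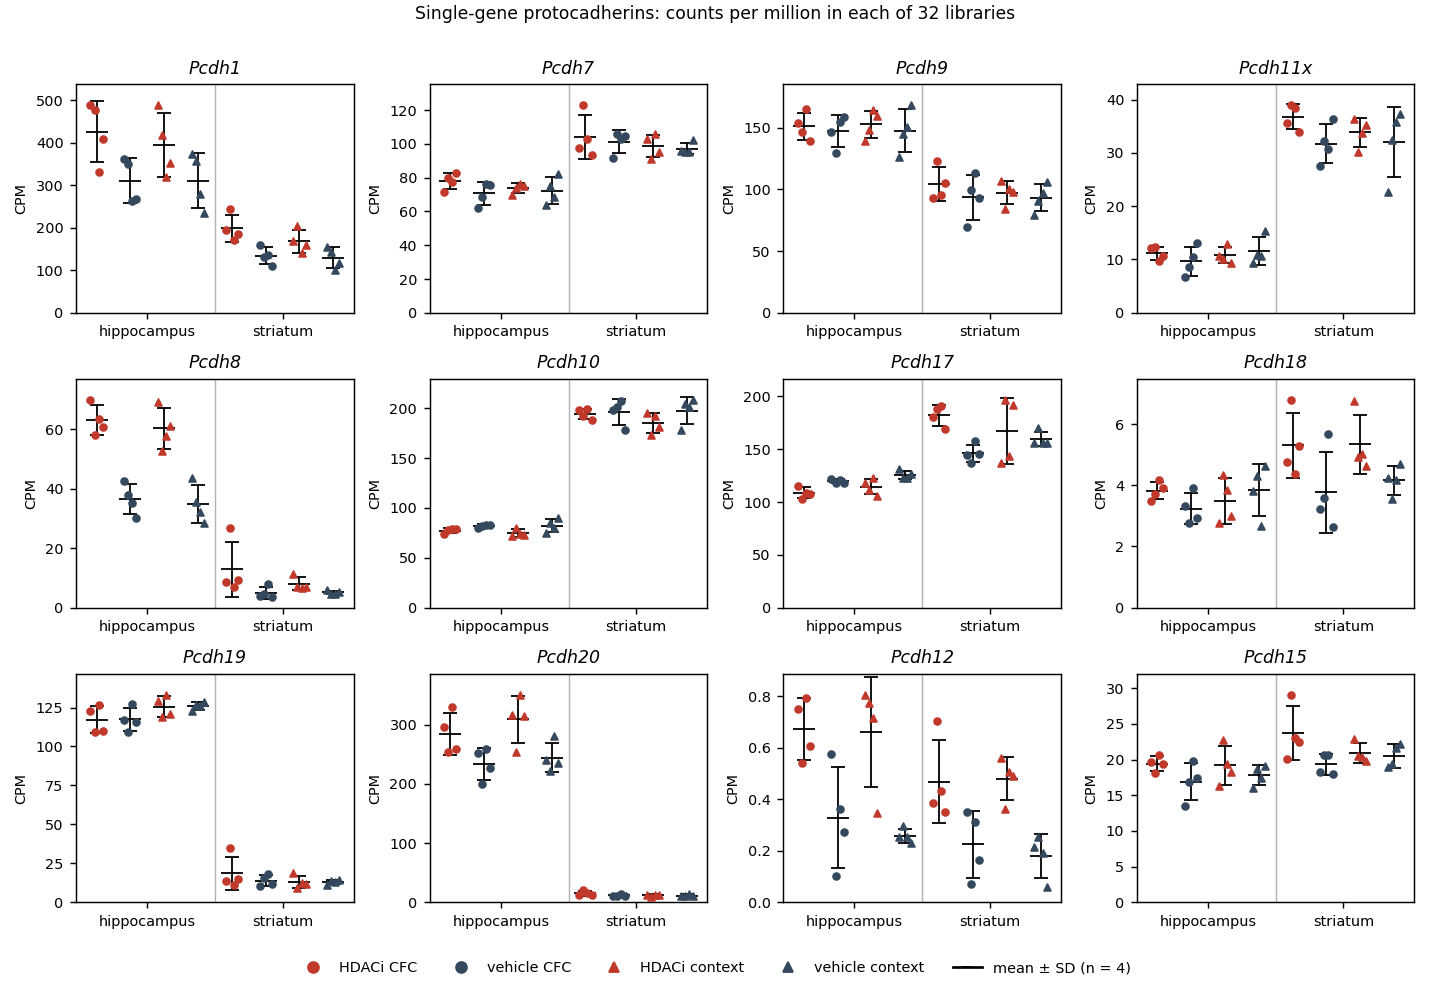
CPM (y axis, from 0, scaled per gene) of the 12 single-gene protocadherins in each of 32 libraries, hippocampus left and striatum right of the grey line. Circles are CFC, triangles context, red HDACi and grey-blue vehicle, with bars for mean and SD of 4 libraries. In hippocampus Pcdh8 ran from 52.8 to 69.8 CPM in HDACi libraries and from 28.5 to 43.5 CPM in vehicle libraries.

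Conditioning itself was tested as CFC against context in HDACi and in vehicle mice of each region. No protocadherin and no other gene was called by edgeR in any of these 4 comparisons (0% of all genes). At an unadjusted p under 0.05 there were 1 and 1 members of 67 in hippocampus (HDACi and vehicle mice) and 2 and 0 of 68 in striatum, and DESeq2 called 0 members. Among all genes the unadjusted counts were 775 of 18261 in HDACi and 188 in vehicle hippocampus, and 988 of 18256 in HDACi and 216 in vehicle striatum. The interaction of drug and behaviour gave 0 members and 0 genes in both regions by edgeR, with 2 members in each region at an unadjusted p under 0.05 and 0 members by DESeq2. Pcdh8 shows the range of values: in vehicle hippocampus CFC and context libraries ran from 30.2 to 42.5 and from 28.5 to 43.5 CPM.

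Hippocampus was set against striatum in vehicle context mice, in a fit of all 32 libraries. Of 68 members 18 were higher and 22 lower in hippocampus, against 44.1% of 19198 genes called (24.2% higher, 19.9% lower). The largest differences were those of 3 single genes, Pcdh20, Pcdh19 and Pcdh8. Pcdh20 stood at 240, 223, 280 and 235 CPM in hippocampus, against 9.93, 10.0, 14.3 and 11.3 CPM in striatum (log2 fold change 4.39 ± 0.173, adjusted p = 2.07e-18). Pcdh19 (chrX:133582860-133688987, minus strand) stood at 123, 126, 126 and 128 CPM in hippocampus, against 10.9, 13.8, 13.2 and 14.4 CPM in striatum (3.24 ± 0.232, adjusted p = 1.3e-12). Pcdh8 followed with 2.75 ± 0.287, Pcdh1 with 1.24 ± 0.167 and Pcdh9 with 0.63 ± 0.119 (adjusted p = 3.33e-09, 3.94e-07 and 6.34e-05). The hippocampal and striatal libraries overlapped for none of these 5 genes.

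Lower in hippocampus were Pcdh11x, Pcdh10, Pcdh7 and Pcdh17. Pcdh10 (chr3:45378398-45435623, plus strand), which guides striatal axons in mice, stood at 74.9, 85.0, 79.5 and 89.5 CPM in hippocampus, against 178, 204, 201 and 208 CPM in striatum (log2 fold change -1.30 ± 0.066, adjusted p = 6.32e-16). Pcdh11x (chrX:120290259-120910619, plus strand), an X-linked delta gene, stood at 9.28, 10.9, 10.6 and 15.3 CPM in hippocampus, against 22.7, 32.4, 35.7 and 37.3 CPM in striatum (-1.51 ± 0.168, adjusted p = 1.18e-08). Pcdh7 and Pcdh17 were lower by less, with -0.46 and -0.37 (adjusted p = 2.58e-05 and 0.00057). Pcdh12, Pcdh15 and Pcdh18 were not called (0.49, -0.23 and -0.15, adjusted p = 0.406, 0.0755 and 0.585). Same-numbered vehicle context libraries of the regions had correlations of 0.145 to 0.430, but hippocampus replicates 2 and 3 were closest to striatum replicates 1 and 4. The replicate block, which also spans groups without such correlation, called 23 members lower, adding Pcdh15 (-0.23, adjusted p = 0.0388). Pcdh15 was also called without the libraries high in choroid plexus genes (-0.27, adjusted p = 0.045) and without the pair low in medium spiny neuron markers (-0.27, adjusted p = 0.0276).

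The clusters leaned in different directions. In the alpha cluster 5 of 13 genes were higher in hippocampus and 0 lower, in the beta cluster 5 of 22 higher and 7 lower, and in the gamma cluster 3 of 21 higher and 11 lower. Among all genes 24.2% were higher and 19.9% lower. The median log2 fold changes of the alpha, beta and gamma clusters were 0.42, -0.11 and -0.33, against 0.02 for all genes. The alpha genes called were Pcdha3 (0.92), Pcdha9 (0.87), Pcdha7 (0.85), Pcdhac1 (0.57) and Pcdhac2 (0.48). Pcdha3 stood at 2.21, 2.37, 1.98 and 2.13 CPM in hippocampus, against 1.01, 1.15, 1.03 and 1.31 CPM in striatum, without overlap. Summed, the alpha cluster averaged 60.0 ± 3.8 CPM in hippocampus and 43.9 ± 3.4 CPM in striatum, and the gamma cluster 338 ± 17.6 and 405 ± 42.3 CPM (SD, n = 4 each).

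Gamma genes outside the C-type group made up all 11 lower gamma calls. The largest were Pcdhga6 (-1.43 ± 0.13), Pcdhga7 (-1.35 ± 0.12) and Pcdhga9 (-1.19 ± 0.18), with adjusted p of 3.27e-10, 1.75e-10 and 2.12e-06. Pcdhga6 stood at 9.28, 11.9, 11.5 and 13.6 CPM in hippocampus, against 28.1, 33.8, 29.3 and 31.1 CPM in striatum, without overlap. Pcdhgb6 (-0.78), Pcdhgb7 (-0.68) and Pcdhga5 (-0.63) were lower by less. The higher gamma calls were Pcdhgc4 (0.58), Pcdhgb1 (0.49) and Pcdhga12 (0.38), while Pcdhgc5 and Pcdhgc3 gave -0.08 and -0.07 (adjusted p = 0.439 and 0.722). C-type genes held 46.9% to 49.2% of gamma counts in hippocampus and 40.3% to 40.8% in striatum of vehicle context mice. Some smaller calls, named after their values were seen, depended on 1 library. Pcdhga12 was lost without hippocampus replicate 1 (0.23, adjusted p = 0.153) or 3 or striatum replicate 3 or 4, and Pcdhgb1 without replicate 2 or 3 of either region (0.33 to 0.47, adjusted p 0.0686 to 0.168). Pcdhgb1 was also lost without the libraries high in choroid plexus genes (0.45, adjusted p = 0.0571) and without the pair low in medium spiny neuron markers (0.45, adjusted p = 0.0552). Pcdhgb2 was lost without hippocampus replicate 1, 2 or 3 or striatum replicate 1, 2 or 4 (-0.35 to -0.24, adjusted p 0.0541 to 0.16). Pcdhgb5 was lost without hippocampus replicate 1 or 3 or striatum replicate 2 (-0.46 to -0.40, adjusted p 0.0561 to 0.0758), and Pcdhga4 without striatum replicate 2 (-0.36, adjusted p = 0.0514).

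In the beta cluster, whose genes share few exons, neighbours went opposite ways. Pcdhb2 was higher in hippocampus (1.15 ± 0.21, adjusted p = 3.39e-05), at 4.00, 4.22, 2.91 and 3.57 CPM against 1.29, 1.73, 1.48 and 1.96 CPM in striatum. Pcdhb6 was lower (-1.42 ± 0.17, adjusted p = 4.71e-08), at 3.18, 3.15, 3.10 and 3.44 CPM in hippocampus against 8.40, 9.14, 7.6 and 8.74 CPM in striatum. Neither pair of groups overlapped. Pcdhb9 was also higher (0.45), and Pcdhb8 (-0.90), Pcdhb20 (-0.78) and Pcdhb19 (-0.70) lower. The other calls of this cluster lay between 0.56 and 0.67 for higher genes and between -1.24 and -0.41 for lower genes, with Pcdhb1 at the lower end. Without the libraries high in choroid plexus genes Pcdhb17 was called lower as well (-0.18, adjusted p = 0.0424). Pcdhb1 rested on 2 to 13 counts in a library, and its call was lost without hippocampus replicate 1, 2 or 3 or striatum replicate 2, 3 or 4 (adjusted p 0.0579 to 0.124).

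**Figure D4:**
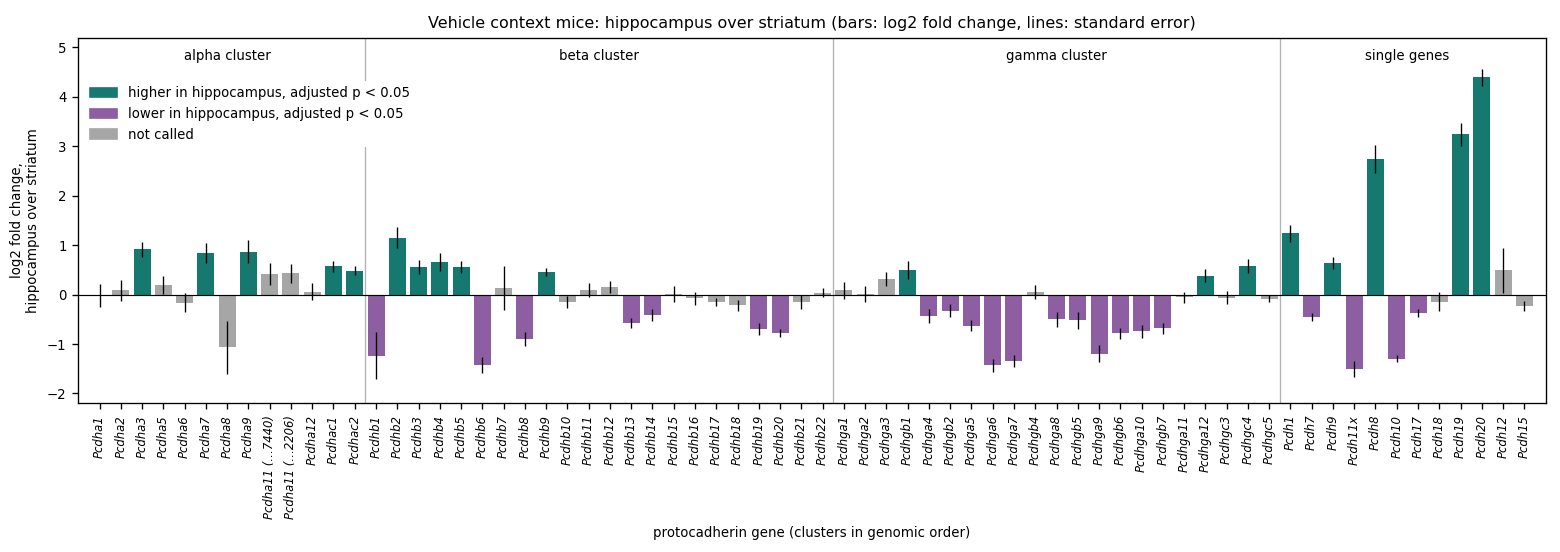
Log2 fold change of hippocampus over striatum in vehicle context mice (y axis, black lines are standard errors) for the 68 protocadherins (x axis, clusters in genomic order, then single genes). Green bars are higher and purple bars lower in hippocampus at adjusted p under 0.05: 5 alpha genes are green and none purple, and 3 gamma genes are green and 11 purple.

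The drug effect was set against itself between regions, as the hippocampal minus the striatal log2 fold change. No member was called by edgeR after CFC or after context, against 0.266% and 0.62% of 19198 genes, with 2 members in each at an unadjusted p under 0.05. After CFC the smallest p among members was that of Pcdh17, whose effect differed by -0.48 ± 0.12 (adjusted p = 0.0897), and DESeq2 called it (-0.45, adjusted p = 0.0499). DESeq2 called 0 members after context. Pcdh8 gave -0.60 ± 0.383 after CFC and 0.10 ± 0.387 after context, and Pcdhgc5 0.04 ± 0.112 and 0.00 ± 0.112. Calls made in one region alone are not shown to differ between regions.

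Lists of genes that act on or resemble protocadherins were read in the same fits. Of 27 tested genes for chromatin architecture and silencing at these promoters, 1, 0, 1 and 1 were higher and 11, 10, 13 and 12 lower (hippocampus CFC and context, striatum CFC and context). Of all genes 7.42%, 6.55%, 9.57% and 10.3% were higher and 13.4%, 13.2%, 14.6% and 14.5% lower in that order. Ezh2, the catalytic subunit of the Polycomb repressive complex, fell by 1.63 and 1.39 on the log2 scale in hippocampus, and its partner Eed fell by 0.95 and 0.91 in striatum. Rest, the repressor of neuronal genes, fell by 1.21 and 1.42 in hippocampus. Setdb1, a histone methyltransferase that guards the cluster in mouse neurons, fell by 0.51 and 0.45 in striatum. Dnmt3b, the methyltransferase of the cluster's promoters in embryos, fell by 2.14 after context in hippocampus. The list's median log2 fold change was -0.20, -0.20, -0.16 and -0.19, against 0.01, 0.01, 0.03 and 0.03 for all genes.

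Of 27 signalling partners 4 were higher and 2 lower in each comparison, near the 20.8%, 19.8%, 24.2% and 24.8% of all genes called. Axin1, a Wnt scaffold bound by Pcdhgc3, fell by 0.88, 0.91, 0.77 and 0.82 in the same order, and Map2k3, a kinase of a stress-activated pathway, by 0.85, 1.1, 0.79 and 0.88. Ctnnb1, the beta-catenin gene, rose by 0.21 and 0.22 in hippocampus, and Wasf1, a WAVE complex subunit that protocadherins recruit, by 0.37 and 0.30 in striatum. Of 8 proteases and secretase subunits that cut protocadherins, 0 were higher and 3, 1, 1 and 2 lower, among them Adam17 (-0.53 and -0.61 in hippocampus) and Ncstn (-0.26 and -0.21 in striatum).

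The shares of all genes just given also apply to the counts of other cadherins and of neighbouring genes. Classical and type II cadherins had 0 calls of 18 in both hippocampal comparisons, 0 higher and 1 lower of 17 after CFC in striatum, and 2 higher and 1 lower after context there. Cdh9 fell by 0.28 and 0.26 in striatum and Cdh5, the endothelial cadherin, rose by 0.46 after context. In the rest of the superfamily 2, 2, 2 and 4 genes were higher and 0 lower, of 19 tested in hippocampus and 18 in striatum, with the giant cadherin Fat4 higher by 0.49 and 0.48 in hippocampus. Among 16 listed genes that neighbour the clusters, 1 was higher in each comparison, and 3, 2, 2 and 2 were lower. Taf7, a transcription factor gene between the beta and gamma clusters, fell by 0.71, 0.71, 0.62 and 0.60. Hdac3 and Diaph1, at the far end of the gamma cluster, were not called in any drug comparison (0.04, 0.11, -0.05 and 0.09 for Hdac3, and 0.01, 0.05, 0.07 and 0.16 for Diaph1).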

How the data were processed

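RNA-seq counts per gene, as deposited by the authors in 1 table for 32 libraries, were used without change. Per the submitters' processing notes, the tools included DESeq2, STAR 2.6 and bcl2fastq 2.20.0, with genome mm10. Which counter, strand setting and annotation were used is not stated there. Libraries were stranded and polyadenylated RNA was selected, per the labels' protocols. Of 54146 identifiers 54079 matched GENCODE M21 (GRCm38), and 67 did not, with up to 0.0264% of the counts of any library.

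Each region's 16 libraries were fitted with 4 group means, and all 32 for comparisons between regions, in edgeR 4.0.16 (R 4.3.3) with filterByExpr, TMM scaling and the quasi-likelihood test. P-values were adjusted by Benjamini-Hochberg over all genes tested and called under 0.05. Standard errors are the log2 fold change divided by the square root of F. Pcdhb1 passed the low-count filter in striatum but not in hippocampus. CPM divides by the library total, and counting error limits genes of few counts. The procedure was tested on simulated data with known changes. For the drug comparison after CFC, it called 55.2% of 1.5-fold and 10.6% of 1.25-fold changes in either region. For the region difference of the drug effect after CFC it called 44.8% and 6.06%. A missing call is therefore no sign that a small change was absent. The labels name 4 biological replicates a group and do not say whether same-numbered hippocampal and striatal libraries come from the same mouse. Pcdhb7 is named here after its values were seen. In vehicle context libraries it held 88, 58, 359 and 347 counts in hippocampus and 102, 103, 260 and 331 in striatum. In HDACi context libraries it held 158, 241, 76 and 282 counts in hippocampus and 164, 216, 107 and 264 in striatum. Whether mice were shared was not tested, and the main fit of all 32 libraries treats them as independent. Correlated deviations of same-numbered libraries (every pair over 0.1) were found for hippocampus context and for the regions, which the blocked fits use. Each blocked fit covers all libraries of its region or of both regions, including groups without such correlation. The pairing comes from the replicate numbers in the labels.

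The members and gene lists were chosen with earlier results of these data known. Named by rule were the single genes, the C-type genes, per comparison and cluster up to 6 called members by smallest adjusted p, the members of highest and lowest level and at the count threshold, up to 3 genes per related list by smallest adjusted p, and Hdac3, Diaph1 and Taf7. Alternatives were DESeq2 1.42.0, other scalings and filters, GC and length correction, blocks, subsets of libraries and leaving out each library. Leaving out the libraries low in medium spiny neuron markers was chosen after seeing the data.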

Additional observations from a re-analysis of the deposited data

Results flagged for a closer look

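In 7 of the 160 groups of 4 values examined (the C-type genes, single genes and cluster sums by group), 1 library lay further from its group than Dixon's critical ratio for 4 values allows, and chance gives about 1 such group in 20. Striatum HDACi CFC replicate 2, which was low in medium spiny neuron markers, accounted for 3 of them. It held 26.8 CPM of Pcdh8, against 6.91 to 9.13 CPM in the other HDACi CFC libraries, 34.6 CPM of Pcdh19, against 11.3 to 14.7 CPM, and 2.61 CPM of Pcdhac1, against 1.95 to 2.03 CPM. Striatum HDACi context replicate 1 held 11.2 CPM of Pcdh8, against 6.74 to 6.98 CPM in its group. Striatum HDACi context replicate 2 had a gamma cluster sum of 465 CPM, against 411 to 419 CPM. Striatum vehicle context replicate 2 held 169.7 CPM of Pcdh17, against 155.8 to 156.3 CPM, and replicate 4 of that group held 102.07 CPM of Pcdh7, against 95.4 to 95.6 CPM.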

How the results depend on the processing

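No result changed direction while called under any alternative run. Of 20 drug calls 4 held under every alternative (Pcdh8 in both hippocampal comparisons, Pcdhgc5 after context in hippocampus, Pcdh1 after CFC in striatum), and 11 held whichever library was left out. Of 40 regional calls 25 held under every alternative and 34 whichever library was left out. After CFC in hippocampus the 4 members called became 7 with the DESeq2 Wald test, 8 with a term for the split of replicates 1 and 2 against 3 and 4, 8 with GC and length correction, and 2 to 5 when 1 library was left out. After context in hippocampus the 5 became 10 with GC and length correction, 3 with replicates 3 and 4 alone, 8 with the replicate block, and 3 to 5 when 1 library was left out. After CFC in striatum the 6 became 3 with replicates 1 and 2 alone, 1 with replicates 3 and 4 alone, and 5 to 8 when 1 library was left out. After context in striatum the 5 became 1 with replicates 1 and 2 alone, 2 with replicates 3 and 4 alone, 8 when only the groups compared were fitted, and 3 to 5 when 1 library was left out. The regional difference of the drug effect after CFC gave 1 member with the DESeq2 Wald test. Subsets hold fewer samples, and the cause of the other shifts was not tested. Where same-numbered libraries shared only a number, the replicate block gave 9 members after CFC in hippocampus and 6 and 7 after CFC and context in striatum, and it changed no other count by over 1.5 times. Counting error limits Pcdh12, Pcdha8 and Pcdhb1, which held the fewest counts.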
